A study of Mus musculus with 84 samples.

Results

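The 10 genes described here encode AP-1 and related stress-response transcription factors: Fos, Fosb, Fosl1 and Fosl2 of the Fos family, Jun, Junb and Jund of the Jun family, and Atf3, Batf and Maff. They were chosen by name from 21851 protein-coding genes, and what was measured is where peaks of 4 histone marks lay at their promoters, over their bodies and across 50 kb on either side. Nuclei of labelled adipocytes came from epididymal fat of AdipoERCre x NuTRAP mice, labelled as being on a C576BL6 background, and were profiled by CUT&Tag, which cuts and tags DNA where an antibody finds a mark. The paper gives the background of both lines as C57BL/N. All mice, controls included, carried both transgenes and had received tamoxifen 2 times at 4 to 5 weeks of age to switch on a Cre recombinase driven by an adipocyte promoter, so that the NuTRAP allele tagged nuclei of cells in which that Cre was active.

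There were 84 libraries, each with 1 peak list, and 8 groups for each mark, 20 of 3 libraries and 12 of 2. In the 12-week cohort, C mice ate chow to 18 weeks of age, H mice were of the same age after 12 weeks of high-fat diet (HFD), CC_s mice ate chow to 26 weeks, and HC mice were 26 weeks old after 12 weeks of HFD and 8 weeks of chow. In the 25-week cohort, CC_l mice ate chow to 31 weeks, HH mice were 31 weeks old after 25 weeks of HFD, CCC mice ate chow to 39 weeks, and HHC mice were 39 weeks old after 25 weeks of HFD and 8 weeks of chow. H and HH are therefore obese groups, HC and HHC weight-loss groups, and each was compared with the chow group of its age. The question these comparisons address is whether marks set during obesity remain in adipocytes after weight loss.

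AP-1 is a dimer of basic leucine zipper proteins, made of Jun proteins alone or of a Jun with a Fos, ATF, BATF or MAF partner, that binds short DNA elements in promoters and enhancers. Its genes are classic immediate early genes, switched on within minutes by growth factors, cytokines and cell stress through MAP kinases, and in fat AP-1 is best known from inflammatory and stress responses. H3K4me3 marks promoters in use, H3K27ac active promoters and enhancers, H3K4me1 enhancers and the edges of promoters, and H3K27me3 genes silenced by Polycomb.

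Read depth was not stated for single libraries. The number of peaks ranged from 11249 to 46397 per library, and the share of all promoters that carried a peak ranged from 41.7 to 66.0% for H3K4me3, 17.7 to 55.1% for H3K27ac, 6.09 to 51.4% for H3K4me1 and 10.3 to 27.1% for H3K27me3. Libraries of the 25-week cohort held more: H3K4me1 marked 31.1 to 51.4% of promoters there and 6.09 to 19.3% in the 12-week cohort. Since cohort and library preparation cannot be told apart, groups were compared within a cohort. Where diet effects of the cohorts are set against each other below, a difference cannot be told apart from one of library preparation. Some libraries stood apart: H3K27ac CCC replicate 3 marked 17.7% of promoters against 50.8% in the other CCC library, and H3K4me3 H replicate 3 had 11249 peaks. H3K27me3 peaks were narrow in the H and HC libraries (median width 332 to 914 bp, against at least 1071 bp in every other H3K27me3 library). H3K27ac peaks were narrow there too (477 to 906 bp, against at least 1199 bp in every other H3K27ac library). Median widths of H3K4me3 peaks in H and HC were 821 to 1130 bp and overlapped those of CC_s (1115 to 1393 bp). The 9 adipocyte markers carried H3K4me3 in 6 to 9 of 9 in every library. Of 9 macrophage markers, however, 8 carried H3K4me3 in both HH libraries, in all 3 HHC libraries and in 2 of 3 H libraries, against 0 to 3 in every chow library, and 0, 1 and 5 did in HC. Peaks were the top 1% of signal blocks in each library, so a missing peak does not show that a mark was absent, and in these pooled nuclei more cells with a mark cannot be told apart from more of the mark per cell.

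The promoters themselves are shown for 4 genes with a called difference below, and not for Fosb and Jund, which also had one. Each sequence runs from 250 bases before to 50 bases after a transcription start site, 5′ to 3′ along the gene's strand, as given by RefSeq for GRCm38.p6. Capitals mark a palindromic cyclic AMP response element, TGACGTCA, the site bound by ATF and CREB dimers.
Fos, chr12:85473640-85473939, plus strand: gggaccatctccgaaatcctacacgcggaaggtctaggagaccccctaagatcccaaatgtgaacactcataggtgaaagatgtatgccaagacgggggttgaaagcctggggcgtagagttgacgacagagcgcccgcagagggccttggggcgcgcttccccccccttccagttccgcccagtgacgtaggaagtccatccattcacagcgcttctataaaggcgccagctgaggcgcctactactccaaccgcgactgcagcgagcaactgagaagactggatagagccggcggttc
Atf3, proximal start site, chr1:191183284-191183583, minus strand: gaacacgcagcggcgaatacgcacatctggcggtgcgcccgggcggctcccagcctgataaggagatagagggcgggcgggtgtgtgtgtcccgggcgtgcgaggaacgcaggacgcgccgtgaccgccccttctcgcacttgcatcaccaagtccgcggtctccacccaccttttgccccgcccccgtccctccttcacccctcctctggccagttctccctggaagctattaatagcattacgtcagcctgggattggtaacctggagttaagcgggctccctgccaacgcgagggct
Batf, chr12:85686470-85686769, plus strand: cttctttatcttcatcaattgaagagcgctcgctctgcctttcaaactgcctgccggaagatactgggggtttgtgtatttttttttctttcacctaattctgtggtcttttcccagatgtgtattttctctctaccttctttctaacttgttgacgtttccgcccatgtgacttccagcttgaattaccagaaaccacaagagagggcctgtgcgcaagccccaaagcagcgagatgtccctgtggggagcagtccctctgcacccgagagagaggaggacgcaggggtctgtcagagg
Maff, chr15:79347270-79347569, plus strand: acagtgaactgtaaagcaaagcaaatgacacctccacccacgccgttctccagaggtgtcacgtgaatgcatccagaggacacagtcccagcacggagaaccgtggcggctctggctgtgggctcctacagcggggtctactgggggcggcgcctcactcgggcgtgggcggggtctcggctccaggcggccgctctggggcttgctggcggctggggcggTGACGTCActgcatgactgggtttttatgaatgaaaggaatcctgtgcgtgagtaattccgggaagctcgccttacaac
Peaks lay over this Fos sequence in 21 of 21 H3K4me3 libraries, 20 of 21 H3K27ac libraries, 7 of 22 H3K4me1 libraries and 1 of 20 H3K27me3 libraries. Over the Batf sequence, H3K27me3 was the commonest mark, with a peak in 11 of 20 libraries, against 10 of 21 for H3K4me3, 3 of 21 for H3K27ac and 2 of 22 for H3K4me1. The Atf3 sequence carried H3K4me3 peaks in 21 libraries and H3K27me3 peaks in 12. RefSeq sequences were found for 9 of the 10 genes. Those of Fosl2 and Jund belong to start sites 671 and 1210 bp from the nearest start site used for the promoter windows below. The cyclic AMP response element was in the Maff sequence alone among them, starting at position -29 from the start site, and in 1.79% of 32851 promoters of this length. The AP-1 site, searched as TGACTCA and its reverse TGAGTCA, was in none of the 9 and in 5.20% of all promoters, and the CArG box bound by serum response factor was in none of the 9 and in 1.63%. Only full matches within these short sequences were counted. Variant sites, and sites more than 250 bases upstream, were not searched, so these counts do not show that a gene lacks such elements.

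A promoter was taken as the window of 2000 bp on either side of each annotated start site, merged where a gene has several, and was called marked in a library if a peak reached it by 1 bp or more. On this measure AP-1 promoters carried active marks more often than the average promoter. H3K4me3 was present in 190 of 210 pairs of gene and library (90.5%, against 57.7% over all promoters), H3K27ac in 142 of 210 (67.6% against 40.7%), and H3K4me1 in 100 of 220 (45.5% against 24.0%). H3K27me3 was present in 39 of 200 (19.5% against 18.4%), close to the share over all promoters. These shares describe genes chosen by name and carry no test.

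The genes fell into a strongly marked and a weakly marked group. H3K4me3 was found in every library at 7 promoters, and in 19 of 21 libraries at Maff, 14 at Fosl1 and 10 at Batf. H3K27ac was found in every library only at Fosl2 and Jun, and in all but 1 (CCC replicate 3) at Fos, Junb and Jund, whereas Fosl1 and Batf carried it in 3 libraries each. H3K4me1 was found in every library at Junb alone. H3K27me3 was recurrent only at Atf3 (18 of 20 libraries) and Batf (16 of 20), and was found in no library at Fosb, Fosl2, Jun, Junb and Jund.

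**Figure D1:**
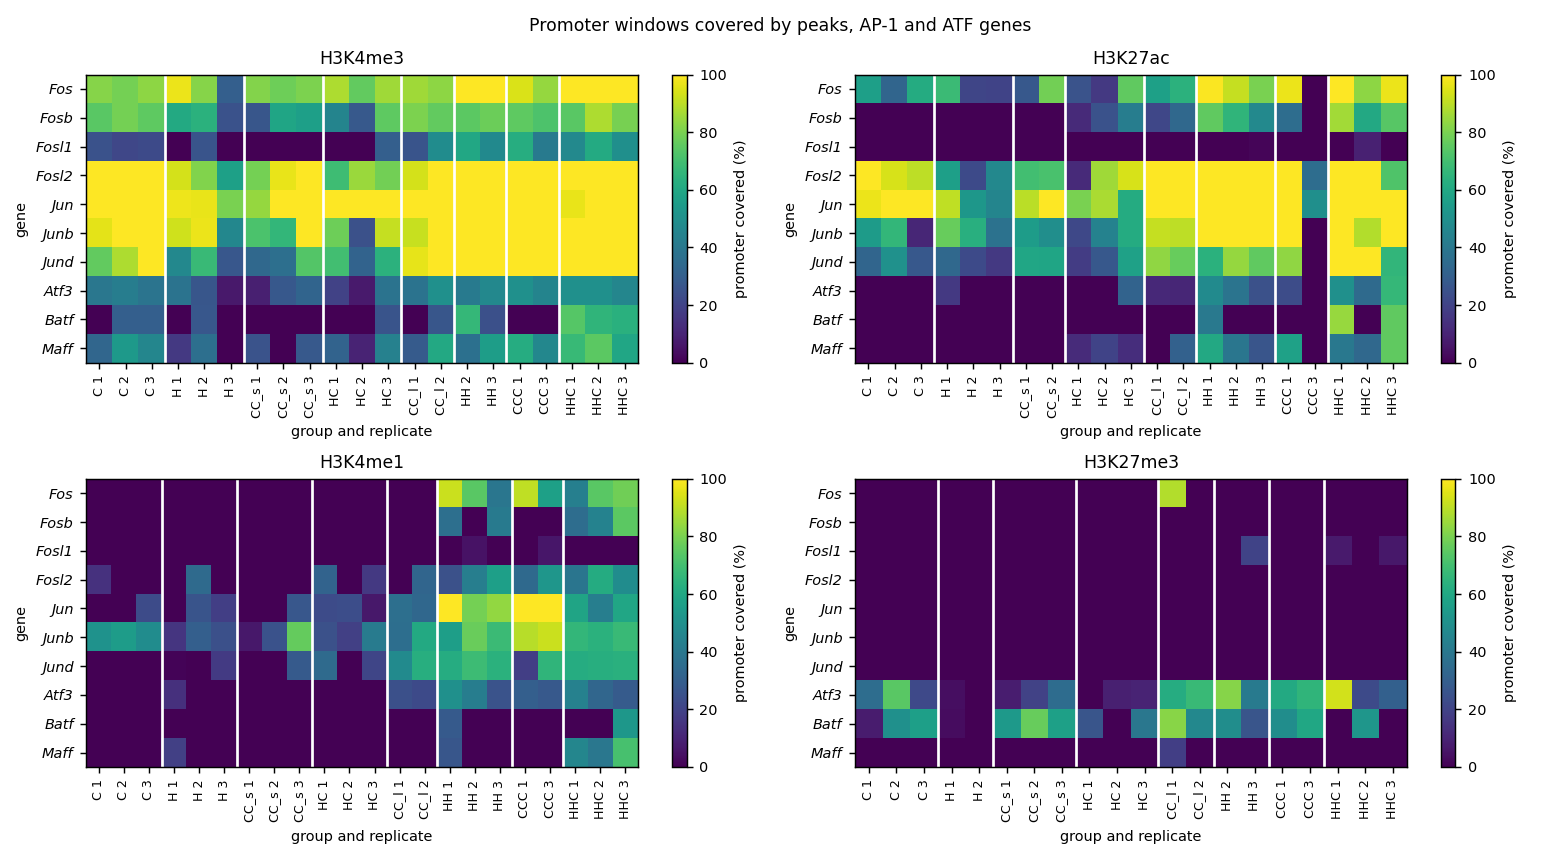
Percentage of each gene's promoter window under peaks (colour, 0 to 100%), with genes in rows and libraries in columns, 1 panel for each mark and white lines between groups. Fosl2, Jun, Junb and Jund are filled or nearly filled with H3K4me3 in the 25-week libraries, H3K27me3 stands almost only at Atf3 and Batf, and the column H3K27ac CCC 3 is empty except at Fosl2 and Jun.

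Width of the H3K4me3 peak, a feature that tends to be large at genes central to a cell's identity or regulation, was largest at Fosl2, Jun and Junb. The widest H3K4me3 peak touching the Fosl2 promoter had a median of 8006 bp over 21 libraries (2280 to 14360 bp). At Jun it was 6117 bp (3080 to 7782 bp), at Junb 5510 bp (593 to 19675 bp) and at Jund 3941 bp (621 to 11105 bp), while the median over all marked promoters ranged from 940 to 3474 bp between libraries and had a median of 2213 bp. Within each library these widths ranked at a median percentile of 97.4 for Fosl2, 97.2 for Jun, 96.4 for Junb and 88.6 for Jund among marked promoters. Fos (3575 bp, percentile 85.1), Atf3 (3181 bp, 83.5) and Fosb (3381 bp, 72.9) came next, Maff lay in the middle (2392 bp, 51.4), and Batf (1211.5 bp, 22.7) and Fosl1 (1648 bp, 19.4) were narrow. The ranges of neighbours in this order overlapped. For H3K27ac the order began in the same way, with median percentiles of 96.3 for Fosl2, 94.5 for Jun, 92.2 for Junb, 75.4 for Jund, 71.5 for Batf (in the 3 libraries with a peak) and 69.9 for Fos. Signal is coverage summed over the parts of peaks inside the window. By signal per base of window, Jun had a median percentile of 99.8 for H3K4me3 and 99.7 for H3K27ac.

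Diet was tested on 3 measures: promoter coverage, the percentage of the promoter window under peaks; promoter signal, log2(ppm + 1), where ppm is the window's share of all in-peak signal of the library; and distal coverage, the percentage of the gene body and 50 kb flanks, outside every promoter window, under peaks. Each was fitted across all genes with limma, and a difference was called at a Benjamini-Hochberg adjusted p under 0.05. The obesity difference is the mean of H minus C and HH minus CC_l, and the weight-loss difference the mean of HC minus CC_s and HHC minus CCC. The exact permutation test beside it, two-sided, permutes libraries within cohorts and can give no p below 0.005, 0.01 or 0.0167, depending on the group sizes. Promoters were tested in 33 of 40 pairs of gene and mark, since 7 genes had no H3K27me3 peak in 2 or more libraries, and distal regions in 40. For obesity, limma called 0 of 33 pairs for promoter coverage (0.609% over all genes). There, 4 pairs had an unadjusted p under 0.05 in limma and 3 an exact permutation p under 0.05. That unadjusted threshold was passed by 11.5% of all promoters tested for H3K4me3 and 15.8% for H3K27ac. Limma called 1 of 33 pairs for promoter signal (Fos, higher, with 0.726% over all genes), and 1 of 40 for distal coverage (Atf3, lower, with 0.778%). For weight loss it called 3 of 33 for promoter coverage (Batf, Fosb and Maff, all higher, with 2.41% over all genes) and 0 of 33 for signal (0.907%). In signal, 8 pairs had an unadjusted p under 0.05 in limma and 2 an exact permutation p under 0.05. The share over all genes at that unadjusted threshold is not given here, so the count of 8 is not read as an excess. For distal coverage 4 of 40 were called (Fos once and Jund for 2 marks, higher, and Atf3, lower, with 6.87% over all genes).

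**Figure D2:**
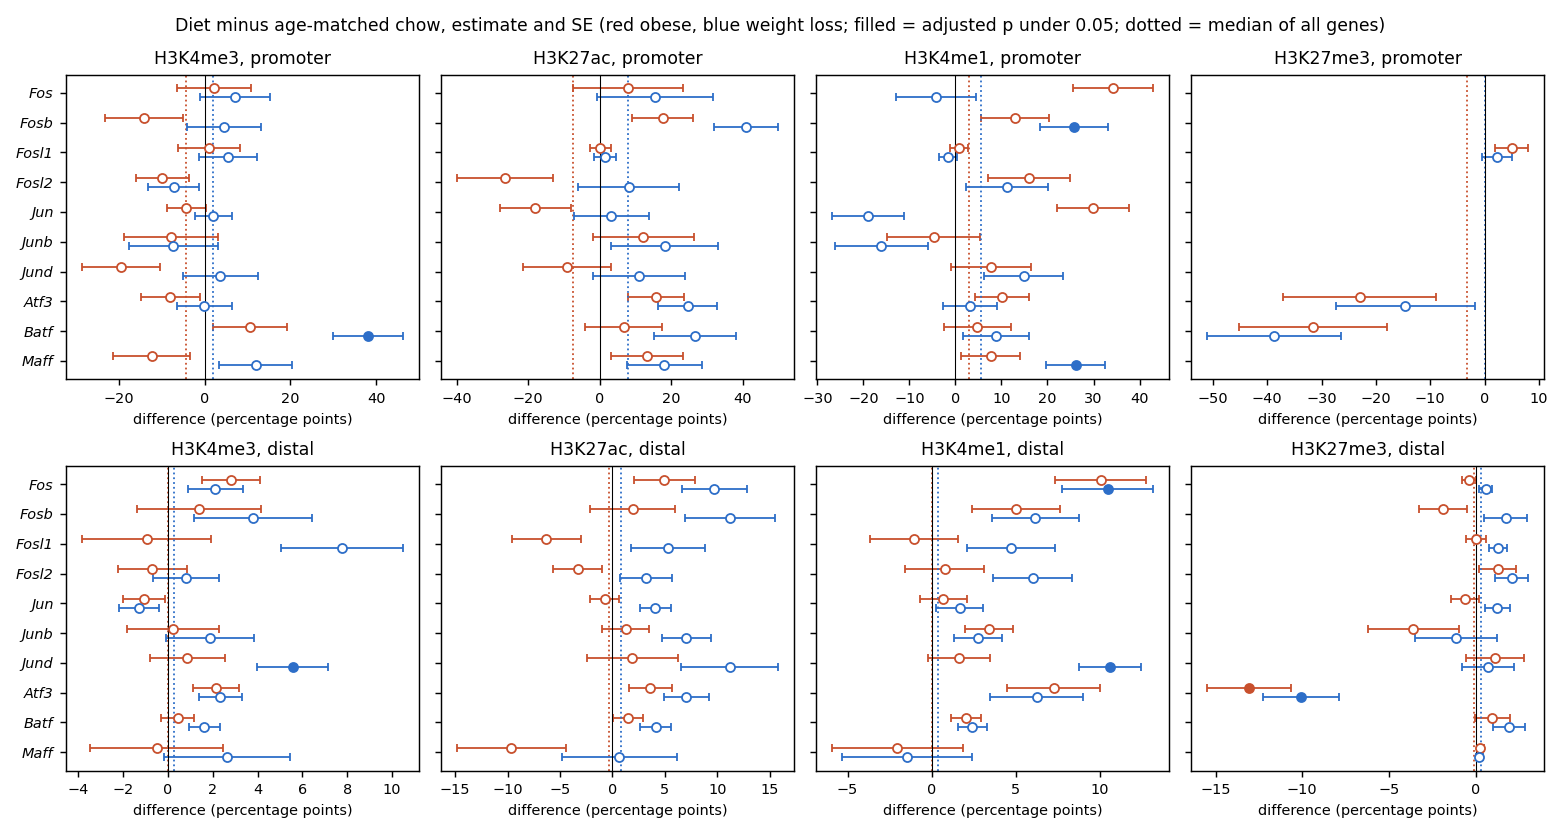
Difference between diet and age-matched chow libraries for each gene (rows), averaged over both cohorts, in percentage points, with bars of 1 SE; red is obesity, blue weight loss, filled points passed an adjusted p of 0.05 in limma, and dotted lines are the medians of all genes. The filled points are Batf for H3K4me3 and Fosb and Maff for H3K4me1 at promoters, and Jund, Fos and Atf3 in the distal panels. H3K27me3 at promoters was tested for Fosl1, Atf3 and Batf only.

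Fos (chr12:85473890-85477273, plus strand, GRCm38), the prototype immediate early gene, differed in H3K4me1. Its promoter carried no H3K4me1 peak in any of the 12 libraries of the 12-week cohort or in the 2 CC_l libraries. It was covered over 92.0, 74.2 and 39.2% in the 3 HH libraries, 90.4 and 56.9% in the 2 CCC libraries and 43.1, 74.5 and 78.3% in the 3 HHC libraries. HH and CC_l therefore did not overlap, whereas HHC and CCC did. Promoter signal, log2(ppm + 1), was 0 in CC_l and 5.54, 4.37 and 3.48 in HH, 5.17 and 3.496 in CCC, and 4.10, 4.07 and 4.87 in HHC. The obesity difference in signal was 2.23 (SE 0.54, adjusted p = 0.0470 by limma, where 1.13% of 12591 tested promoters were called higher and the median of all genes was 0.51), and the exact permutation test, whose groups are tied at 0 in the 12-week cohort, gave p = 0.1. The promoter coverage difference of 34.2 percentage points (SE 8.76) was not called by limma (adjusted p = 0.0876). Fos was alone among the 10 promoters in being marked with H3K4me1 in every HH library and no CC_l library, a pattern that 2% of all promoters showed. The signal call was lost when any C, CC_s or CC_l library, H replicate 1 or 2, or HC replicate 1 or 2 was left out (12 of 22 fits, adjusted p up to 0.116).

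Around Fos, H3K4me1 covered 1.71, 0 and 0% of the distal region in C libraries and 9.95, 9.68 and 1.92% in H, then 8.99 and 4.47% in CC_l and 21.8, 19.1 and 19.9% in HH. Every obese library was thus above every library of its control group. The difference of 10.1 percentage points (SE 2.72) had an exact permutation p of 0.005, the smallest the design allows, but an adjusted p of 0.111 in limma, where 0.0342% of 17566 genes were called higher. After weight loss the values were 3.09, 0.944 and 1.85% in HC against 0, 0 and 2.62% in CC_s, and 34.1, 13.4 and 29.4% in HHC against 2.89 and 8.59% in CCC. Only the 25-week groups were clear of each other. This difference of 10.5 percentage points (SE 2.72) was called (adjusted p = 0.0229 by limma, 9.3% of genes called higher, all-gene median 0.39; exact permutation p = 0.115), and was lost without CC_s replicate 1 (0.0517), CC_s replicate 2 (0.0535), HC replicate 1 (0.0506) or CCC replicate 1 (0.0866).

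Single regions carried this pattern. A merged H3K4me1 region at chr12:85451603-85459847, at -22287 to -14043 bp from the start site, was found in 18 of 22 libraries, chow libraries included: in 1 of 3 C, 3 of 3 H, 1 of 3 CC_s, 3 of 3 HC, both CC_l, all HH, both CCC and all HHC libraries. The next region toward the gene, at chr12:85460577-85466353, was found in 2 of 3 H, 3 of 3 HH and 2 of 3 HHC libraries and in no chow library. Downstream, chr12:85484415-85491545 was marked in 2 H, 1 CC_l, 3 HH, 1 CCC and 3 HHC libraries. These regions were described after their values were seen and were not tested one by one.

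**Figure D3:**
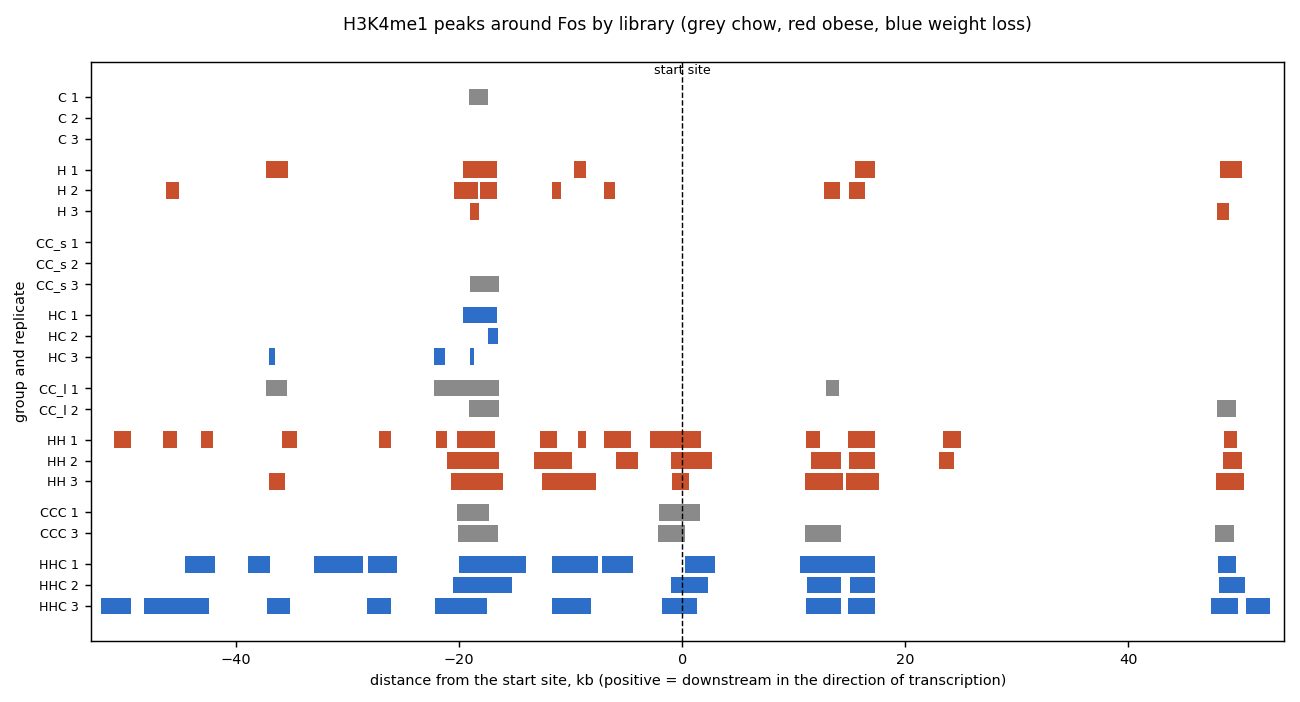
H3K4me1 peaks (bars) around Fos in each of 22 libraries (rows), by distance in kb from the start site (dashed line); grey is chow, red obese, blue weight loss. The region near -20 kb recurs in all groups, the start site is covered only in HH, CCC and HHC libraries, and each HH row holds more bars than any chow row.

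Fosb (chr7:19302696-19310051, minus strand), whose protein pairs with Jun proteins in AP-1, carried H3K4me3 in every library and H3K27ac in 12 of 21. Its promoter had no H3K27ac peak in any of the C, H and CC_s libraries. It was covered over 11.7, 25.2 and 42.5% in HC, 21.1 and 33.7% in CC_l, 75.7, 65.5 and 47.2% in HH, 35.8 and 0% in CCC and 86.1, 60.5 and 74.0% in HHC. Every weight-loss library exceeded every library of its control group, as did every HH library against CC_l. The weight-loss difference was 41.03 percentage points (SE 8.95, all-gene median 8.00) with an exact permutation p of 0.01, the smallest this design allows. It was not called by limma (adjusted p = 0.0760), which called 0.0301% of 13280 promoters higher for this mark and contrast. Leaving out CCC replicate 3 brought it to 32.1 (adjusted p = 0.134 by limma), and leaving out the other CCC library, replicate 1, brought it to 49.996 (0.0250). Fosb and Maff were the only 2 of the 10 genes with H3K27ac in every HC and no CC_s library, as 0.297% of all promoters had.

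H3K4me1 at the Fosb promoter was found only in HH (36.4, 0 and 40.9% covered) and HHC (35.7, 44.2 and 74.6%). The weight-loss difference of 25.7 percentage points (SE 7.36, all-gene median 5.60) was called by limma at an adjusted p of 0.0496, where 4.07% of promoters were called higher, and rested on the 25-week cohort, since all HC and CC_s values were 0. Its exact permutation p was 0.1. It was the least stable of the calls, kept in 5 of 22 fits that left out 1 library each, namely an HH library or HHC replicate 1 or 2, with adjusted p up to 0.108 in the others. Fosb and Maff were again the genes marked in every HHC and no CCC library, as 3.98% of promoters were. For distal H3K4me3, obesity went in opposite directions by cohort at Fosb: C libraries were covered over 12.2, 15.4 and 13.8% and H over 6.79, 7.22 and 3.48%, while CC_l was covered over 18.8 and 26.5% and HH over 32.1 and 34.7%. All H libraries lay below all C libraries at 6 of the 10 genes and at 36% of all genes, and all HH above all CC_l libraries at 7 of the 10 and at 37.5% of all genes. The difference between cohorts of 18.7 percentage points (SE 5.52) passed in limma (adjusted p = 0.0476, all-gene median 1.72). The region holds 7 other genes, the nearest of which, Rtn2, begins 6535 bp away.

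Across all 21 H3K27ac libraries, the promoters whose coverage was most like that of Fosb were Tspan32 (Pearson r = 0.978), Cyba (0.958) and A530032D15Rik (0.951), of 13280 searched. These r values pool both cohorts, so a difference between cohorts that is shared with Fosb can raise them. Mean H3K27ac coverage of Tspan32 was 0, 3.37, 0 and 18.9% in C, H, CC_s and HC. It was 39.9, 81.4, 21.6 and 89.4% in CC_l, HH, CCC and HHC. Likeness to Fosb within a cohort was not tested. Cyba encodes a subunit of the phagocyte NADPH oxidase and Tspan32 a tetraspanin of blood cells. Of 9 macrophage markers, the number with an H3K27ac peak was 0, 0 and 5 in HC against 0 and 1 in CC_s, 8, 2 and 4 in HHC against 4 and 0 in CCC, and 4, 6 and 3 in HH against 1 in each CC_l library, so that HH alone was clear of its control. Their summed signal was 36.2 to 203 ppm in HHC and 0 to 20.5 ppm in CCC, with Itgam at 0 in every H3K27ac library. For H3K4me1, 2 to 4 of the 9 were marked in HH and in HHC and 1 or 2 in CC_l and in CCC (11.1 to 51.9 ppm in HH, 5.70 to 13.3 in CC_l, 20.4 to 81.3 in HHC, 14.3 to 15.5 in CCC), with Adgre1 and Mrc1 at 0 throughout. Their part in the Fos, Fosb and Maff results was not tested.

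Fosl1 and Fosl2, the other Fos-family genes, lay at opposite ends. Fosl2 (chr5:32135801-32157842, plus strand), which encodes Fra-2, was covered over at least 56.7% of its window with H3K4me3 in every library, and neither its promoter nor its distal coverage was called for any mark. The largest weight-loss difference in distal coverage was 6.02 percentage points for H3K4me1 (adjusted p = 0.106 by limma). Fosl1 (chr19:5447547-5455946, plus strand) had a promoter H3K27ac peak in 3 of 21 libraries and none over more than 9.10% of the window. Distal H3K4me3 at Fosl1 was 23.5, 39.2 and 34.7% in HHC against 19.4 and 17.04% in CCC, and 4.50, 2.47 and 11.9% in HC against 2.10, 4.99 and 7.83% in CC_s. Only the 25-week groups did not overlap, and the averaged difference of 7.76 percentage points was not called by limma (adjusted p = 0.0709). The region holds other genes, and no gap separates Ccdc85b from Fosl1.

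Among the Jun genes, Jun (chr4:95049034-95052222, minus strand), the core AP-1 subunit, had the steadiest promoter coverage for H3K4me3 and H3K27ac, though not for H3K4me1. H3K4me3 covered 80.0 to 100% of its window, with a median of 100%, and H3K27ac at least 45.6%. H3K4me1 at Jun was low in the 12-week cohort (0 to 27.2% over C, H, CC_s and HC). It was 36.7 and 33.4% in CC_l against 100, 79.3 and 83.8% in HH, and 100 and 100% in CCC against 58.5, 42.9 and 59.1% in HHC. HH therefore lay above its control and HHC below its own. The obesity difference of 29.9 percentage points (SE 7.82, exact permutation p = 0.045) and the weight-loss difference of -18.9 (SE 7.82) were not called by limma (adjusted p = 0.0955 and 0.181), and on a log2 scale of covered bases the latter turned to 0.39.

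Junb (chr8:84974484-84978718, minus strand), a Jun protein induced by cytokines, was marked by H3K4me3 in every library, and its values differed in signal. Its H3K4me3 signal, log2(ppm + 1), was 6.32, 5.93 and 6.19 in C and 6.94, 7.25 and 7.56 in H, and 5.91 and 5.67 in CC_l against 6.19 and 6.14 in HH. With groups set by title, obese libraries were all above their controls in both cohorts. The difference of 0.74 (SE 0.19, all-gene median -0.117) had the smallest exact permutation p the design allows, 0.0167, and an adjusted p of 0.0987 in limma. However, the treatment field of these H3K4me3 libraries names another group for CC_l replicate 2, HH replicates 2 and 3, and CCC replicate 3. Placed by that field, a library of at least 6.14 fell in CC_l and HH reached only 5.92, so the order was not kept. In H3K27ac every obese library was also above its controls. Values were 5.01, 5.12 and 3.30 in C against 7.34, 8.41 and 7.35 in H, and 5.52 and 5.39 in CC_l against 6.48, 5.68 and 5.74 in HH. The difference of 1.87 (SE 0.66, all-gene median 0.00237) had an adjusted p of 0.408 by limma and an exact permutation p of 0.015. CCC is no part of this contrast, yet without CCC replicate 1 or replicate 3 the difference, again 1.87, had an adjusted p of 0.0350 or 0.0302. The weight-loss difference of 1.84 (SE 0.70, adjusted p = 0.330 by limma, exact permutation p = 0.05) was 0.48 without CCC replicate 3, which had few peaks and none at Junb, and 3.20 (adjusted p = 5.52e-05 by limma) without replicate 1, which leaves that library as the only CCC control. Signal is a share of in-peak signal, and H3K27ac peaks covered 9.597 to 24.44 Mb in H against 42.76 to 48.97 Mb in C. H3K4me3 peaks also covered less in every H than in every C library. In H3K27ac signal, Fos, Fosl2, Jun and Jund also lay higher in every H than in every C library. H3K27ac coverage of Fosl2 and Jun was lower in every H library. The shares of all promoters with these orders are not given here, so the orders are not read as particular to these genes. Mean coverage of Junb was 59.16% in H and 43.997% in C, with overlap. The part of peak extent in the Junb results was not tested. Junb lies beside Polycomb-marked chromatin: 3 merged H3K27me3 regions of 8168 to 15443 bp, lying 24849 to 51606 bp downstream of its start site and at -37241 to -29074 bp upstream, were present in all 20 libraries, and none reached its promoter.

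Jund (chr8:70698949-70700616, plus strand), the Jun gene that is broadly expressed rather than induced, gave the call that held best. Distal H3K4me1 was 2.74, 2.73 and 1.29% in HC against 1.79, 1.57 and 2.96% in CC_s, and 29.9, 22.4 and 34.9% in HHC against 4.97 and 10.95% in CCC. HH (13.04, 13.4 and 14.2%) also lay above CC_l (10.1 and 12.7%), by less. The weight-loss difference of 10.6 percentage points (SE 1.84, adjusted p = 0.00421 by limma, all-gene median 0.39; exact permutation p = 0.05) was kept in all 22 fits that left out a library and in all 5 alternatives run for it. It came from the 25-week cohort, where HHC exceeded CCC by 21.1, whereas HC exceeded CC_s by 0.14, and this difference between cohorts was itself called (20.99, SE 3.67, adjusted p = 0.0102 by limma). Of 7 lymphocyte markers, 1 to 5 carried H3K4me1 in HHC (5.26 to 104 ppm in sum) and 0 or 1 in CCC (0 to 5.57 ppm), and of 9 macrophage markers 2 to 4 in HHC and 1 or 2 in CCC. Their part in the Jund result was not tested.

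Much of the added H3K4me1 at Jund lay in a merged region of 14965 bp at chr8:70670253-70685217, at -28696 to -13732 bp from the start site. It was covered over 8533 to 14170 bp in HHC and 3763 to 4489 bp in CCC, over 2997 to 7124 bp in HH and 2391 to 5275 bp in CC_l, and over at most 4430 bp in any 12-week library. The 50 kb flanks hold Iqcn, 2840 bp away, and Gm3336, Lsm4, Pde4c and Pgpep1, so the region cannot be assigned to Jund from position. Distal H3K4me3 moved in the same direction, at 16.96, 18.3 and 24.1% in HHC against 10.5 and 9.32% in CCC, and 2.11, 1.33 and 4.72% in HC against 1.20, 0.808 and 2.44% in CC_s. The difference of 5.57 percentage points (SE 1.58, adjusted p = 0.0308 by limma, exact permutation p = 0.02) was called in a setting where 9.65% of genes were called higher. It was lost without CC_s replicate 1 (0.0621) or 2 (0.0672), HC replicate 1 (0.0505) or 3 (0.0842), CCC replicate 1 (0.0678) or 3 (0.108), or HHC replicate 3 (0.0557), and also with the treatment field (0.124), 20 kb flanks (0.0827) or quantile normalization (0.0916). At the promoter, H3K4me3 coverage of Jund was 76.1, 87.6 and 100% in C and 46.6, 67.6 and 27.02% in H, with no overlap, as at 5 of the 10 members and at 41.6% of 15005 promoters, where every H library lay below every C library. The 25-week values were 100% in all but 1 library, CC_l replicate 1 (96.3%). The averaged difference of -19.5 percentage points (SE 9.11, all-gene median -4.41) was not called by limma (adjusted p = 0.423).

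**Figure D4:**
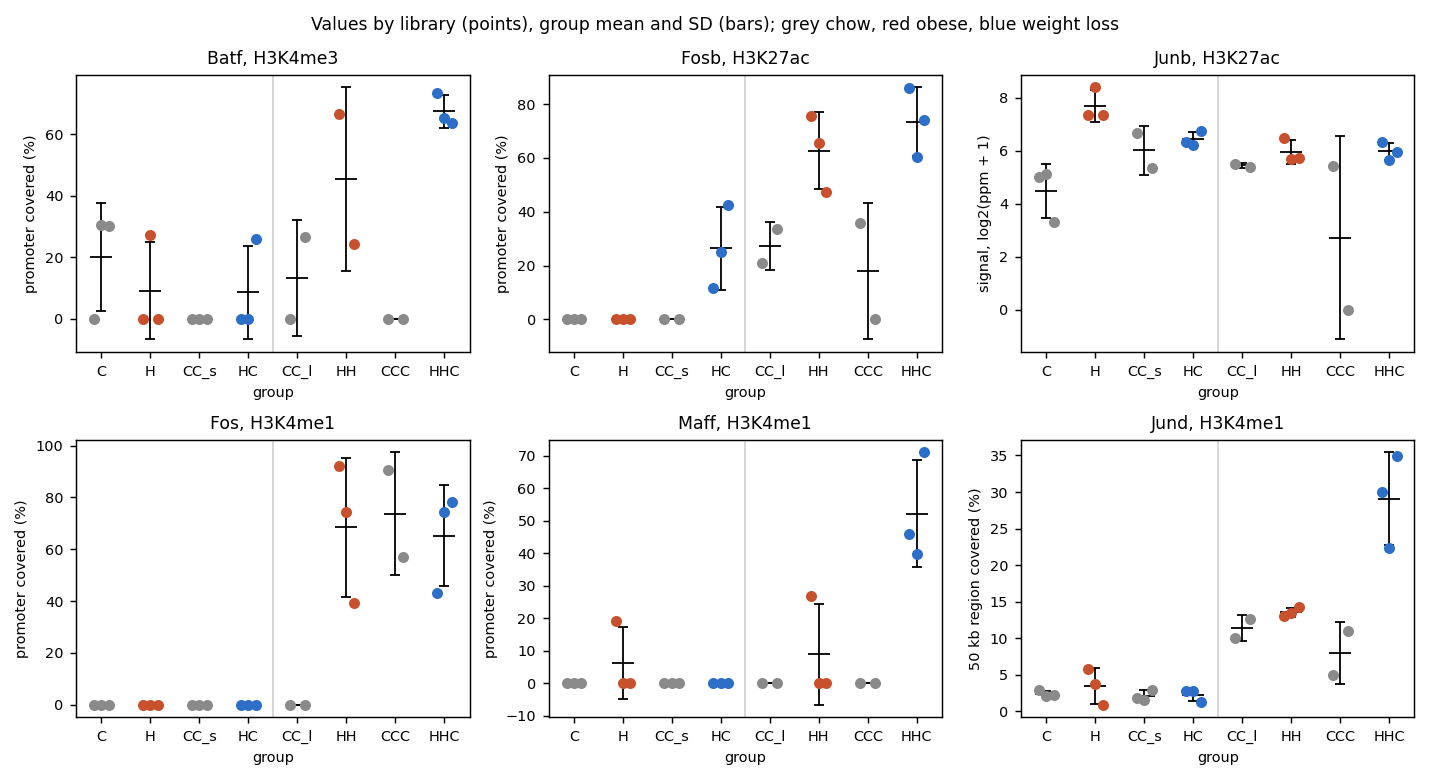
Values of single libraries (points) with group mean and SD (bars) for 6 combinations of gene and mark: promoter coverage (%) for Batf H3K4me3, Fosb H3K27ac, Fos H3K4me1 and Maff H3K4me1, promoter signal, log2(ppm + 1), for Junb H3K27ac, and coverage (%) of the distal region for Jund H3K4me1. Grey is chow, red obese, blue weight loss, and the grey line separates the cohorts; HHC lies above CCC in every panel except Fos, and the Junb value of 0 is CCC replicate 3.

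Atf3 (chr1:191170296-191218039, minus strand), a stress-induced ATF protein that can act as a repressor, had its clearest difference in H3K27me3. Its distal region was covered over 14.9, 17.6 and 14.6% in C and 2.05 and 3.98% in H, and over 24.5 and 26.7% in CC_l and 14.02 and 10.3% in HH. After weight loss it was covered over 2.68, 0.684 and 2.03% in HC against 17.4, 14.5 and 17.6% in CC_s, and 18.7, 17.2 and 8.0% in HHC against 16.2 and 24.0% in CCC. In this distal coverage, obese libraries were below their controls in both cohorts and HC below CC_s, while HHC and CCC overlapped. The obesity difference was -13.1 percentage points (SE 2.43, adjusted p = 0.0190 by limma, 1.57% of 18834 genes called lower, all-gene median -0.08), with the smallest exact permutation p possible here, 0.0167. The weight-loss difference was -10.1 (SE 2.19, adjusted p = 0.0210 by limma, 2.63% called lower; exact permutation p = 0.03). The 2 contrasts share no libraries. The first was lost without H replicate 1 (0.129), H replicate 2 (0.105) or CC_l replicate 1 (0.0607), and the second without CC_s replicate 3 (0.0547), HC replicate 3 (0.0528) or CCC replicate 3 (0.0896). H and HC were the groups with narrow H3K27me3 peaks, and after quantile normalization of coverage across libraries, an alternative chosen after the data were seen, the obesity call was lost. It was also lost with 20 kb flanks (adjusted p = 0.0561 by limma) and with a block for replicate number (0.0993). The weight-loss call was lost with 20 kb flanks (0.0515). Whether peak width accounts for the 12-week difference was not tested.

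The marks divided the Atf3 locus. Atf3 has 2 annotated start sites, and the proximal one, at position 191183340, carried H3K4me3 in 21 of 21 libraries, H3K27ac in 11 of 21, H3K4me1 in 11 of 22 and H3K27me3 in 13 of 20. The upstream one, at 191218039, carried H3K4me3 in 0 of 21, H3K27ac in 1 of 21 and H3K27me3 in 16 of 20. A merged H3K27me3 region of 26475 bp spanned the proximal start site, at chr1:191174740-191201214, and was marked to some extent in all 20 libraries. It was covered over 10655 to 16939 bp in C and 2327 to 4537 bp in H, 11137 to 18687 bp in CC_s and 693 to 3642 bp in HC. In the 25-week cohort it was covered over 20028 to 20030 bp in CC_l and 9290 to 15169 bp in HH, and over 12284 to 19299 bp in CCC and 2943 to 15874 bp in HHC. A second region further upstream, chr1:191255908-191262764, was marked in all 10 chow libraries, in no H or HC library, in 1 of 2 HH libraries and in 2 of 3 HHC libraries.

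**Figure D5:**
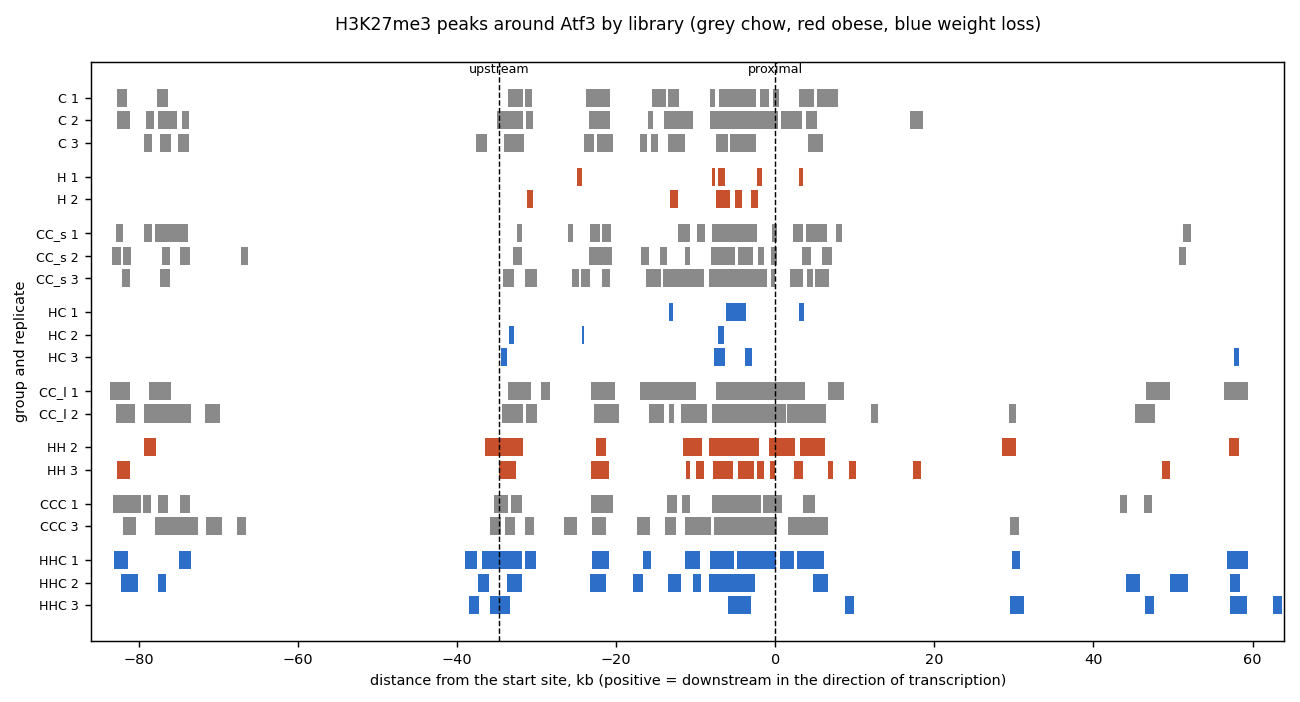
H3K27me3 peaks (bars) around Atf3 in each of 20 libraries (rows), by distance in kb from the proximal start site along the direction of transcription; dashed lines mark both start sites, grey is chow, red obese, blue weight loss. The bars within 20 kb of the proximal start site are long in chow rows and short in H and HC rows, and no H or HC row has a bar further than 40 kb upstream of it.

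Distal H3K4me1 at Atf3 was higher in obese libraries, without a call. It was 10.6, 9.18 and 2.47% in H against 1.15, 2.33 and 2.01% in C, and 14.04, 22.5 and 17.2% in HH against 9.48 and 8.48% in CC_l, so that every obese library lay above its controls. The difference of 7.26 percentage points (SE 2.76) had an exact permutation p of 0.015 and an adjusted p of 0.225 in limma. Promoter H3K27ac was 47.8, 38.6 and 24.9% in HH against 11.7 and 10.7% in CC_l, and 50, 34.6 and 66.5% in HHC against 23.3 and 0% in CCC, while 12-week libraries were at 0 except H replicate 1 (16.5%) and HC replicate 3 (31.9%). The weight-loss difference of 24.7 percentage points (SE 8.28) was not called by limma (adjusted p = 0.216).

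Batf (chr12:85686669-85709087, plus strand), a partner of Jun proteins known from lymphocytes and myeloid cells, changed most at its promoter. H3K4me3 covered 73.6, 65.3 and 63.7% of the window in HHC and nothing in the 2 CCC libraries. Elsewhere values were low or mixed, at 0, 30.5 and 30.1% in C, 0, 27.3 and 0% in H, 0 in all CC_s libraries, 0, 0 and 26.1% in HC, 0 and 26.7% in CC_l and 66.6 and 24.4% in HH. Batf was the only one of the 10 genes marked with H3K4me3 in every HHC and no CCC library, as 1.39% of promoters were. The weight-loss difference of 38.1 percentage points (SE 8.20, adjusted p = 0.0188 by limma, 1.87% of 15004 promoters called higher, all-gene median 1.99; exact permutation p = 0.05) was lost without HC replicate 3 (0.0592), CCC replicate 1 (0.0691) or CCC replicate 3 (0.0917). With the 4 libraries of uncertain group placed by their treatment field instead of their title, this call was lost and Batf was no longer marked in every library of one group and none of the other.

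H3K27me3 at the Batf promoter went the other way. It covered 7.45, 50.2 and 56.3% in C and 3.30 and 0% in H, 53.7, 76.7 and 57.0% in CC_s and 26.2, 0 and 39.5% in HC, 82.1 and 46.6% in CC_l and 48.9 and 26.2% in HH, and 49.1 and 59.6% in CCC and 0, 52.4 and 0% in HHC. H and C, and HC and CC_s, did not overlap, while the 25-week groups did. The obesity difference of -31.5 percentage points (SE 13.6, exact permutation p = 0.0667) and the weight-loss difference of -38.7 (SE 12.3, exact permutation p = 0.025) were not called by limma (adjusted p = 0.240 and 0.0922). H3K27ac at the Batf promoter was found in 3 libraries, HH replicate 1 (40.4%), HHC replicate 1 (84.8%) and HHC replicate 3 (75.6%). In the 25-week cohort, marker promoters of blood cells moved with Batf. Of 7 lymphocyte markers, 6 or 7 carried H3K4me3 in HHC and 1 in CCC, and 4 or 5 in HH and 1 or 2 in CC_l. Of 9 macrophage markers, 8 carried it in each HHC library and 3 and 1 in CCC (summed signal 67.4 to 217 ppm against 17.6 to 39.3 ppm). The 12-week cohort differed: 8 of 9 macrophage markers were marked in H replicates 1 and 2, yet Batf in 1 of 3 H libraries. In C, 2 of 9 were marked in each library, and Batf in 2 of 3. Endothelial markers were at 4 or 5 of 6 in HHC and 2 in CCC. The summed H3K4me3 signal of the 9 adipocyte markers was lower, at 208 to 798 ppm in HHC against 998 to 1070 ppm in CCC, and 800 to 961 ppm in HH against 1098 to 1309 ppm in CC_l. The part of these marker values in the H3K4me3 results for Batf and Jund was not tested.

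Maff (chr15:79346621-79359076, plus strand), a small MAF protein without an activation domain, resembled Fosb. H3K4me1 was found at its promoter in 1 H library (19.1%), 1 HH library (26.8%) and all 3 HHC libraries (45.9, 39.8 and 71.1%). No chow library carried it. The weight-loss difference of 26.1 percentage points (SE 6.39) was called by limma (adjusted p = 0.0219, exact permutation p = 0.1) and differed between cohorts (52.2, SE 12.8, adjusted p = 0.0276). It was lost without any 1 of the 3 CC_s libraries, HC replicate 2, HC replicate 3 or CCC replicate 3, with adjusted p up to 0.0575. The H3K4me1 call was also lost with equal peak numbers (adjusted p = 0.253 by limma), a 500 bp window (0.117), log2 covered bases (0.0582) or quantile normalization (0.402). H3K27ac at the Maff promoter was absent from C, H and CC_s and covered 12.3, 20.004 and 12.9% in HC. It covered 0 and 31.0% in CC_l, 60.4, 39.1 and 26.5% in HH, 57.3 and 0% in CCC and 40.01, 33.7 and 75.8% in HHC, so HH and HHC each overlapped their control. In promoter signal, log2(ppm + 1), the weight-loss difference was 3.59 (SE 1.01, exact permutation p = 0.02), was not called by limma (adjusted p = 0.288) and was 2.56 without CCC replicate 3 (0.740).

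Over the 10 genes together, the direction of the H3K27ac promoter differences after weight loss turned on 1 library, CCC replicate 3, which had few peaks. The distal differences had a smaller median without it. With all libraries, the weight-loss difference in promoter coverage was above 0 for 10 of 10 genes, as for 77.8% of all genes, with a median of 16.8 percentage points beside 8.00 for all genes. In distal coverage it was above 0 for 10 of 10 genes, as for 74.6% of all genes, with a median of 6.16 percentage points beside 0.83. Without CCC replicate 3, the promoter difference was above 0 for 5 of 10 genes, with a median of -2.66 (-0.65 for all genes, 47.2% of which were above 0), and lay below 0 at Fos, Fosl2, Jun, Junb and Jund. These 5 promoters also had a lower mean in HC than in CC_s, a comparison that does not use that library, for example 76.2% against 94.8% at Jun and 34.2% against 59.1% at Jund. However, H3K27ac peaks were narrower in HC (median width 672 to 906 bp) than in CC_s (1232 to 1494 bp). The part of peak width in these lower means was not tested. The distal difference without it was above 0 for 7 of 10 genes (58.3% of all genes), with a median of 3.90 (0.27 for all genes), and lay below 0 at Fosl1, Fosl2 and Maff. With all libraries again, in 7 of 10 genes the distal difference reached an unadjusted p under 0.05 in limma, as it did upward in 24.1% of 17135 genes, and in none an adjusted one, which 0.228% of genes reached. The 5 with the smallest p were Atf3 (7.03, adjusted p = 0.0819 by limma), Fos (9.72, 0.0855), Junb (7.05, 0.0982), Batf (4.13, 0.114) and Jun (4.10, 0.120). Without CCC replicate 3 the Junb difference was 4.37 (0.297). Medians for distal H3K4me1 after weight loss were 5.38 beside 0.39. Under obesity, promoter H3K4me3 coverage was -7.98 beside -4.41, and H3K4me1 promoter signal 1.34 beside 0.51.

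Values of related genes were taken from 4 lists. Of 19 other basic leucine zipper partners, Batf2, the relative of Batf, was the only one called at its promoter (H3K4me3 after weight loss, 23.2 percentage points, SE 4.84, adjusted p = 0.0153 by limma, exact permutation p = 0.1), from a mean of 46.4 ± 18.0% (SD, n = 3) in HHC and 0 in the other 3 groups of that contrast. Of 76 gene and mark pairs of that list, 6 were called higher in distal coverage after weight loss (6.87% of all pairs were called), which included Creb1 and Bach2 for 2 marks each. Of 12 kinases upstream of AP-1, 0 of 34 pairs were called by limma for promoter coverage under either contrast. At an unadjusted p under 0.05 there were 7 under obesity and 3 after weight loss. Over all promoters that threshold was passed by 11.5% (H3K4me3) and 15.8% (H3K27ac) under obesity, and by 12% (H3K4me3) after weight loss. For distal coverage 2 rose (Map2k4 and Map2k6) and 1 fell (Mapk8, the gene of JNK1) after weight loss, 3 of 46 pairs beside that 6.87%. In promoter signal 1 pair of 34, Map2k7 for H3K4me3, was called lower after weight loss. Of 12 other immediate early genes, Egr3 alone was called for promoter coverage, with H3K4me3 over 97.2 ± 2.67% in HHC (SD, n = 3) and 40.5 ± 5.88% in CCC (n = 2), and 29.8 ± 24.9% in HC and 2.399 ± 3.504% in CC_s (n = 3 each). Its weight-loss difference was 42.1 (SE 9.82, adjusted p = 0.0279 by limma, exact permutation p = 0.005, the smallest possible).

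The list of genes commonly given as AP-1 targets, 10 genes, had called promoters for H3K4me1. Plaur, the urokinase receptor, rose under obesity by 48.8 percentage points (SE 10.4, adjusted p = 0.0388 by limma, exact permutation p = 0.02, where 0.413% of promoters were called higher). Means were 70.6 ± 26.1% in HH (SD, n = 3) and 26.9 ± 24.2% in H (n = 3), and all C and CC_l libraries were at 0. Mmp9, a matrix metalloproteinase, rose after weight loss by 39.4 (SE 4.67, adjusted p = 0.000158 by limma, exact permutation p = 0.1), with a mean of 78.8 ± 8.66% in HHC (SD, n = 3) and 0 in HC, CC_s and CCC. Plaur was also called after weight loss, so that 2 of the 8 tested targets were called higher for H3K4me1 in that contrast, where 4.07% of all promoters were. Both genes are expressed by myeloid cells, and macrophage marker values for H3K4me1 are given with Fosb. Their part in the Plaur and Mmp9 calls was not tested.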

How the data were processed

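CUT&Tag libraries of H3K4me3 (21), H3K27ac (21), H3K4me1 (22) and H3K27me3 (20) were used as the peak lists that the authors deposited, 1 for each library, with replicates not pooled. According to the submitters' processing notes and the study's methods, the authors used Trim Galore 0.6.6, Bowtie2 2.4.4, SAMtools 1.13, bedtools 2.30 and SEACR 1.3 in stringent mode with a threshold of 0.01, on mm10 (GRCm38). The deposited values are each peak's position and its signal, the unscaled coverage summed over the peak and its maximum. Read totals are not given, so counts could not be tested and precision rests on the number of libraries. Signal was compared only as a share of all in-peak signal of a library.

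Titles set the groups. Among H3K4me3 libraries, CC_l replicate 2 is given as HH in its treatment field, HH replicate 2 as CCC, HH replicate 3 as CC_l and CCC replicate 3 as HH, and these 4 were regrouped by that field as an alternative. The libraries are described as biological replicates. Libraries of several marks can come from the same mice, so marks are not independent of each other.

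Windows were built with Python 3.11.15 and NumPy 2.4.6 from the GENCODE annotation of 41438 start sites: 2000 bp either side of each start, merged per gene, and the gene body with 50 kb flanks outside all promoter windows. Promoter and distal coverage (percent) and log2(ppm + 1) signal were fitted across all genes above 0 in at least 2 libraries with limma 3.58.1 (R 4.3.3), group means, a mean trend and Benjamini-Hochberg adjustment. The fits were tested on simulated data. Exact permutation tests were two-sided, within cohorts.

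All genes were reported by counts, and test values were given where the unadjusted p was under 0.05, for at most 5 genes for each mark and measure, and for at most 3 genes of each other list. The genes and lists were chosen with earlier results of these data known. Alternatives were a window of 500 bp, flanks of 20 kb, an overlap of 200 bp, equal peak numbers, log2 covered bases, a pseudocount of 5, no filter, the treatment field, a replicate block, median-ratio scaling, leaving out each library, and quantile normalization, which was added after the data were seen.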

Additional observations from a re-analysis of the deposited data

Results flagged for a closer look

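At 3 combinations of gene and mark the diet effect differed between the cohorts by the test of that difference (limma interaction term, Benjamini-Hochberg adjusted p under 0.05 over all genes). Distal H3K4me1 at Jund after weight loss was 21.1 percentage points higher in HHC than in CCC (SE 2.74) and 0.14 higher in HC than in CC_s (SE 2.45), a difference of 20.99 (SE 3.67, adjusted p = 0.0102). Promoter H3K4me1 at Maff after weight loss was 52.2 percentage points higher in HHC than in CCC (SE 9.52), with all HC and CC_s libraries at 0, a difference between cohorts of 52.2 (SE 12.8, adjusted p = 0.0276). Distal H3K4me3 at Fosb under obesity was 10.8 percentage points higher in HH than in CC_l (SE 4.27) and the difference of H minus C was -7.96 (SE 3.49), a difference of 18.7 (SE 5.52, adjusted p = 0.0476). HH and CC_l of this last comparison hold 3 of the 4 libraries whose title and treatment field name different groups.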

How the results depend on the processing

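Counts of the gene and mark pairs called among the 10 genes, and over all genes tested, moved with the settings as follows. For promoter coverage under obesity, 0 pairs among the 10 became 2 with a 500 bp window and 1 with log2 covered bases, and 297 pairs over all genes became 148 with the replicate block, 470 with log2 covered bases and 171 after quantile normalization. For promoter coverage after weight loss, 3 became 1 with equal peak numbers, 0 with 500 bp, 1 with log2 covered bases and 1 after quantile normalization, and 1173 became 736 with equal peak numbers, 697 with 500 bp and 317 after quantile normalization. For promoter signal under obesity, 1 became 0 with equal peak numbers, the block, no filter or a pseudocount of 5, and 354 became 74 with the block, 224 with no filter and 200 with that pseudocount. For distal coverage under obesity, 1 became 0 with the block or 20 kb flanks, and 560 became 1544 with equal peak numbers, 239 with the block and 1860 after quantile normalization. For distal coverage after weight loss, 4 became 10 with the block and 2 after quantile normalization, and 4949 became 3212 with equal peak numbers, 2885 with the treatment field, 8253 with the block and 2094 after quantile normalization.

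Leaving out each library in turn gave, among the 10 genes and over all genes, 0 to 1 and 205 to 885 (promoter coverage, obesity), 1 to 7 and 877 to 2628 (promoter coverage, weight loss), 0 to 2 and 178 to 564 (signal, obesity), 0 to 5 and 290 to 1745 (signal, weight loss, where all libraries gave 0 and 442), 0 to 3 and 262 to 1769 (distal, obesity), and 3 to 11 and 3637 to 8737 (distal, weight loss). The upper counts for weight loss of 7, 5 and 11 came without H3K27ac CCC replicate 1, which leaves CCC replicate 3, with few peaks, as the only control of its age, assumed to vary like the other groups.

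Sign changed for 2 values: the obesity difference of distal H3K4me3 at Fos, -1.03 with the treatment field, and the weight-loss difference of promoter H3K4me1 at Jun, 0.39 on the log2 scale of covered bases. Promoters among the 10 marked in all of one group and none of the other numbered 1 for H3K4me3 (0 with equal peak numbers or the treatment field, 1 to 2 without a library), 2 for H3K27ac (0 with equal peak numbers, 2 to 8), 3 for H3K4me1 (1 with equal peak numbers, 3 to 4) and 0 for H3K27me3 (1 with a 200 bp overlap or equal peak numbers, 0 to 2). Marked pairs of gene and library ranged, without 1 library, from 180 to 183 for H3K4me3, 133 to 140 for H3K27ac, 91 to 99 for H3K4me1 and 35 to 39 for H3K27me3, and the 100 H3K4me1 pairs became 64 with a 500 bp window. Of 1038 single-gene values without 1 library, 943 kept direction and side of the threshold, 55 lost a call, 40 gained one and 0 changed sign. Same-numbered libraries of a diet group and its control correlated in their deviations from group means between -0.135 and 0.213. No strong likeness by number was seen, which does not show whether such libraries shared a batch. The replicate block kept 43 of 49 single-gene results and ended 2 calls and added 4. Of the alternatives run for each call, other than leaving out a library, the call was kept in 5 of 5 for Jund distal H3K4me1, 4 of 5 for Atf3 H3K27me3 after weight loss and 2 of 5 under obesity, 3 of 6 for Jund distal H3K4me3, 2 of 7 for Batf H3K4me3, 2 of 6 for Maff, 2 of 5 for Fosb, 2 of 5 for Fos distal H3K4me1 and 1 of 5 for Fos signal. The causes of these shifts were not tested. Unknown depth limits each statement on a missing peak.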
